A study of Mus musculus with 36 samples.

Results

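The genes described here are 10 transcription factors of effector T cells, Tbx21, Eomes, Id2, Prdm1, Batf, Irf4, Runx3, Zeb2, Bhlhe40 and Nfatc1, taken by gene name from the 24781 genes of the count table, in which all 10 were found. Naive CD8+ T cells that meet antigen switch on these factors in layers. Signals from the T cell receptor reach Nfatc1, Irf4 and Batf first, the T-box factors Tbx21 (T-bet) and Eomes then direct the cytotoxic programme with Runx3, and Id2, Zeb2 and Prdm1 (Blimp-1) favour terminal effector cells over memory cells. Bhlhe40 is induced on activation and is known to hold back Il10. Several of them also work outside T cells, among them Zeb2 and Runx3 in macrophages.

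Tumour CD8+ T cells and tumour-associated macrophages (TAMs) were sorted on day 7 after MC38 colon adenocarcinoma cells were placed in the skin of mice. The muMt-/- mice were C57BL/6J and WT mice C57BL/6J or C57BL/6N, and which of these the WT libraries came from was not given. For each cell type there were 6 libraries from WT mice, 6 from muMt-/- mice, which carry a mutation in the whole animal that leaves them without mature B cells, and 6 from muMt-/- mice given a GABA pellet, which makes 36 libraries. The labels give the treatment of both groups without GABA as none, and the methods of the study describe placebo. The pellet was placed under the skin 1 day before inoculation. The labels call the replicates independent preparations, and the methods describe 100 cells of 1 mouse per library, sorted as CD45+TCRbeta+CD8+ or CD45+CD11b+F4/80high, and the labels give neither age nor sex, which the study describes as matched between groups. Molecules were counted once each at the poly(A) end, so that levels are not divided by gene length and are compared here between groups, not between genes.

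CD8 libraries held 22896 to 76898 molecules in WT, 51064 to 77839 in muMt-/- and 65356 to 98015 in muMt-/- with GABA. TAM libraries held 206394 to 304100, 100254 to 253608 and 151856 to 262606. The labels of the cell types were checked against their markers. In CD8 libraries 14 of 14 CD8 T cell markers were detected in each group and Thy1 was the most abundant, and their summed share of the molecules lay between 0.224% and 0.751%, against at most 0.00475% in any TAM library. The 18 macrophage markers took 1.20% to 2.43% of the molecules in TAM libraries. In CD8 libraries that share was 0% to 0.257% (median 0.0385%) in WT, 0.136% to 0.929% (median 0.196%) in muMt-/- and 0.0232% to 0.510% (median 0.286%) with GABA, with 16, 18 and 18 of the 18 markers detected and Cd74 the most abundant. The 6 B cell markers held 1, 0 and 5 molecules over the CD8 libraries of WT, muMt-/- and GABA and 10, 8 and 12 over those of TAMs, where Cd79b was the most abundant. NK cell markers held 5, 7 and 12 molecules over the CD8 groups, at most 0.00926% of a library.

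Which factors of the effector programme differ in CD8+ T cells of tumours that grow without B cells, and with GABA, was asked with the 18 CD8 libraries. None of the 10 factors passed the test in any of the comparisons among CD8 groups, and none of the 6663 genes tested did. Levels are normalized numbers of molecules, counts divided by DESeq2 size factors over the 18 libraries, and all 10 factors passed the filter of a mean above 1. With edgeR's quasi-likelihood test, adjusted over all genes tested, 0 of 10 factors were called in muMt-/- against WT, beside 0% of all genes. At an edgeR p under 0.05 before adjustment there was 1 factor, beside 6.17% of all genes, and DESeq2 called 0 factors and 0 genes. GABA against muMt-/- gave 0 factors beside 0% of genes, and before adjustment 0 factors beside 3.71%, with 0 factors and 0 genes in DESeq2. GABA against WT gave 0 factors beside 0%, and before adjustment 2 factors beside 6.89%, with 0 factors and 1 gene in DESeq2.

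The T-box factors were counted in few molecules. Tbx21, which drives Ifng and the cytotoxic genes, stood at 0 to 6.19 normalized molecules in WT (median 4.04), 0 to 3.81 in muMt-/- (median 1.81) and 1.24 to 6.25 with GABA (median 2.78), from 60 molecules in 16 of the 18 libraries. The groups overlapped, and 1 WT and 1 muMt-/- library held none, which allows up to 131 and 47.2 CPM, the count scaled to the library total. The 95% interval of the log2 fold change of Tbx21 in muMt-/- against WT ran from -1.86 to 0.53, and with GABA against muMt-/- from -0.42 to 1.76, so that differences within these intervals are not excluded. Eomes, its relative, which acts in memory and exhausted cells too, was found in 18 of 18 libraries at 0.781 to 4.42 normalized molecules. Its medians were 2.92, 2.34 and 2.52 in WT, muMt-/- and GABA.

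Runx3, which keeps CD8 cells from the CD4 fate and opens cytotoxic genes, stood at medians of 15.0, 10.6 and 11.7 normalized molecules in WT, muMt-/- and GABA, and 1 WT library stood low at 2.29. Id2, an inhibitor of E proteins, had the medians 32.3, 37.5 and 34.9, within a range of 17.8 to 57.8 over all CD8 libraries. The interval of its log2 fold change in muMt-/- against WT, -0.22 to 0.81, was the narrowest of the 10 in that comparison. Nfatc1, the calcium-dependent factor, lay between 4.42 and 12.4 with medians of 8.18, 8.71 and 9.10. Batf, the AP-1 partner of Irf4, held 57 molecules in 16 of 18 libraries, with medians of 2.65, 1.93 and 3.13. For these 4 genes the groups overlapped in all comparisons.

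Bhlhe40 in CD8 libraries stood at 11.3 to 23.7 normalized molecules in WT (median 12.4), 12.3 to 24.7 in muMt-/- (median 21.1) and 10.1 to 20.4 with GABA (median 17.2). 5 of the 6 WT libraries lay at or below 15.5, and the remaining WT library reached into the upper muMt-/- values. The log2 fold change in muMt-/- against WT was 0.55 (SE 0.27), under the 0.05 threshold before adjustment and not after it (edgeR adjusted p = 0.776). The TMM scaling placed the median of all genes at 0.15 in this comparison and at 0.21 in GABA against WT, where the WT libraries are the shallowest. With DESeq2 size factors those medians were 0.06 and 0.06, and Bhlhe40 was at 0.45 (edgeR adjusted p = 0.960), no longer under the threshold before adjustment. With a macrophage marker score of each library, the mean log2 CPM of those markers, in the fit it was at 0.86 (edgeR adjusted p = 0.581). The adjusted p over the settings other than leaving out a single library ranged from 0.581 to 0.9997 with edgeR or DESeq2.

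Prdm1, the repressor that ends proliferation in terminal effector cells, was at 0 in 3 of the 6 WT libraries and at 2.06 to 2.25 in the others (median 1.03). It stood at 1.49 to 10.1 normalized molecules in muMt-/- (median 1.94) and 1.56 to 5.08 with GABA (median 3.69). 4 of the 6 GABA libraries lay above every WT library, and 1 muMt-/- library stood far above the rest of its group. The 3 WT libraries at 0, replicates 1, 2 and 5, allow up to 92.6, 131 and 58.0 CPM. GABA libraries ran from 29.0 to 85.0 CPM (median 62.1). The zeros of replicates 1 and 2 therefore do not show a level below that of GABA. The limit of replicate 5 lies below the GABA median and above the lowest GABA library. The log2 fold change in GABA against WT was 1.47 (SE 0.64; edgeR adjusted p = 0.626), or 1.26 relative to the median of all genes, and 1.35 with DESeq2 size factors (edgeR adjusted p = 0.925). Zeb2, which represses memory genes together with Tbx21, stood at 0 to 6.86, 3.33 to 18.2 and 3.72 to 13.3 in WT, muMt-/- and GABA, with medians of 5.38, 5.46 and 6.25 and overlapping groups. The libraries highest in Zeb2 and in Prdm1 in muMt-/- and in GABA, replicate 1 of each, were also those with the highest macrophage marker shares of their groups, 0.929% and 0.510%. With the macrophage marker score of each library in the fit, the log2 fold change of Prdm1 in GABA against WT was 0.76 (edgeR adjusted p = 0.878), and without both libraries it was 1.27 (edgeR adjusted p = 0.885). Over the settings other than leaving out a single library its adjusted p ranged from 0.581 to 0.999 with edgeR or DESeq2. The exact permutation p of the difference in marker share was 0.0195 for muMt-/- against WT and 0.0498 for GABA against WT, adjusted p 0.234 and 0.373 over 60 comparisons. Gene by gene, 16 macrophage markers were tested with edgeR, and all 16 were higher in both comparisons, with 0 called. Before adjustment 13 and 12 of them were under p 0.05. Their median log2 fold changes were 2.15 and 1.90, beside 0.15 and 0.21 for all genes. The nuclear RNAs Malat1 and Neat1 took 0.295% to 0.486% of the molecules in WT CD8 libraries (median 0.412%) and 0.213% to 0.390% with GABA (median 0.295%). 3 of 6 GABA libraries lay below every WT library (exact permutation p = 0.0173, adjusted p 0.234), and the part of this in the values of GABA against WT was not tested.

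Irf4, whose level follows the strength of the receptor signal, was at 2.40 to 11.1 normalized molecules in WT (median 5.61), 2.02 to 8.33 in muMt-/- (median 4.14) and 1.24 to 5.08 with GABA (median 2.09). The GABA libraries held the lowest values, 4 of 6 below every WT library, and the ranges overlapped. In GABA against WT the log2 fold change was -0.97 (SE 0.45; edgeR adjusted p = 0.671), and -1.12 with DESeq2 size factors (edgeR adjusted p = 0.804; 0.692 to 0.999 over settings with edgeR or DESeq2). In GABA against muMt-/- its interval ran from -1.61 to 0.11. All of these values rest on 22 to 32 molecules per group.

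**Figure D1:**
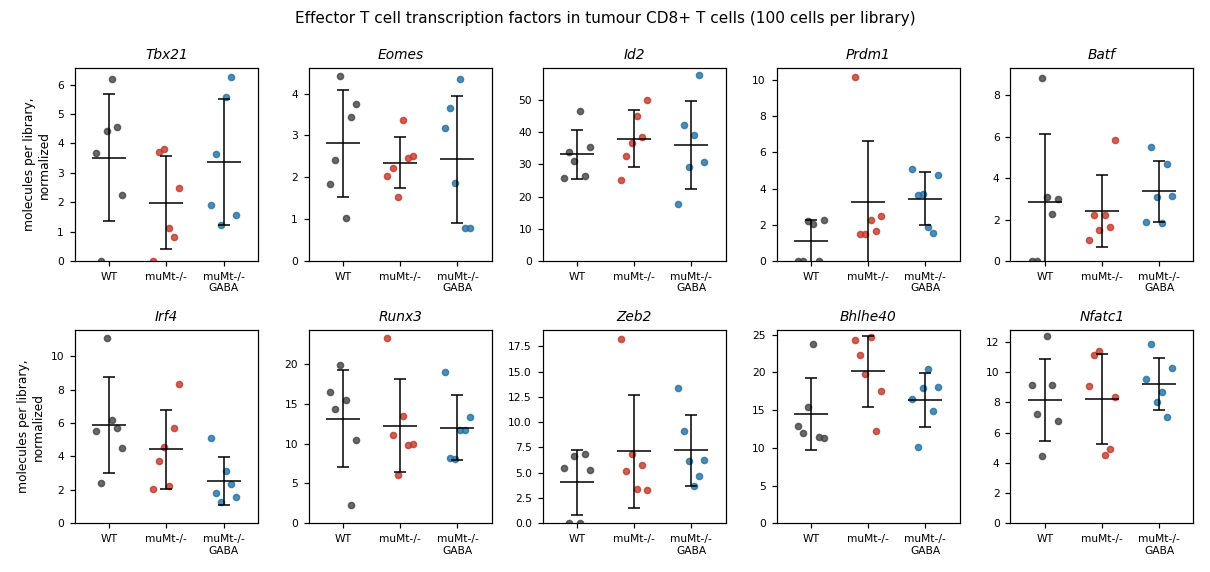
Normalized molecules per library (vertical axis, from 0) of the 10 factors in CD8+ T cells of WT, muMt-/- and GABA-treated muMt-/- mice; points are libraries, 6 per group, and black bars the mean and SD. The groups overlap in every panel, and single libraries stand high for Prdm1 (10.1) and Zeb2 (18.2) in muMt-/-.

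Other genes of the programme were read from 4 lists. Of 19 tested effector genes downstream of these factors, 0 were called in any CD8 comparison, with medians of the log2 fold change of -0.05, 0.11 and 0.08 for muMt-/- against WT, GABA against muMt-/- and GABA against WT, beside 0.15, 0.03 and 0.21 for all genes. Before adjustment 1, 2 and 4 were higher and 1, 0 and 0 lower, beside 358, 134 and 399 higher and 53, 113 and 60 lower of all 6663 genes. The genes of smallest p among them were chosen for that. Ifng, the main cytokine of these cells, stood at 107 to 362 normalized molecules in muMt-/- (median 202) and 183 to 754 with GABA (median 398). The ranges overlapped, and the log2 fold change was 1.02 (SE 0.27; edgeR adjusted p = 0.999), with 4 of 6 GABA libraries above every muMt-/- library. Ccl5, a chemokine of effector cells, was at 7.08 to 76.6 in muMt-/- and 26.7 to 152 with GABA, with medians of 44.2 and 94.3. 5 of the 6 GABA libraries lay above every muMt-/- library, with a log2 fold change of 1.21 (SE 0.36; edgeR adjusted p = 0.999). In muMt-/- against WT, Tnf and Ccl5 had the smallest p, and in GABA against WT, Ifng and Tnf.

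Of 12 tested regulators of naive, memory and exhausted cells, 20 tested partners and paralogues, and 18 tested inducing signals, 0 were called in any CD8 comparison. Before adjustment, 2, 4 and 2 of them were higher and 0 lower in muMt-/- against WT, 0 in either direction with GABA against muMt-/-, and 1, 2 and 1 higher and 0 lower in GABA against WT, beside the counts over all genes given above. Irf8, a relative of Irf4 that macrophages and dendritic cells also express, was at 14.4 to 25.5 normalized molecules in WT (median 21.9) and 25.4 to 69.3 with GABA (median 32.1). Only the edges of these ranges met, and the log2 fold change was 0.96 (SE 0.25; edgeR adjusted p = 0.458), or 0.75 relative to the median of all genes and 0.81 with DESeq2 (DESeq2 adjusted p = 0.999), with 5 of 6 GABA libraries above every WT library. The part of the macrophage RNA described above in this value was not tested. Other genes of smallest p were Nr4a1, Bcl6, Runx1, Irf8, Il12rb1 and Ppp3ca in muMt-/- against WT, Klf2, Satb1, Irf8, Fos, Ppp3ca and Tnfrsf9 in GABA against muMt-/-, and Bcl6, Lef1, Runx1, Ppp3r1 and Stat5b in GABA against WT.

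In TAMs of muMt-/- mice, Bhlhe40 and Zeb2 were higher than in WT. There were 7 factors above the filter. Tbx21 (0 molecules in 18 libraries), Eomes (6 molecules) and Irf4 (12 molecules) fell below it. Of the 7, edgeR called 2, both higher, beside 2.05% of the 9469 genes tested, and before adjustment 4 were under p 0.05, all higher, beside 14.9% of genes. DESeq2 called 3 factors and 282 genes, the third factor being Runx3. The median log2 fold change of the 7 was 0.67, beside -0.05 for all genes.

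Bhlhe40 in TAMs stood at 5.54 to 8.16 normalized molecules in WT (median 6.96), 12.4 to 22.6 in muMt-/- (median 16.6) and 3.98 to 11.5 with GABA (median 9.10). Every muMt-/- library lay above every WT library and above every GABA library, while WT and GABA overlapped. The means were 7.03 ± 0.971 in WT, 16.7 ± 3.96 in muMt-/- and 8.34 ± 3.05 with GABA (SD, n = 6 each), from 56, 84 and 56 molecules. The log2 fold change in muMt-/- against WT was 1.19 (SE 0.25; edgeR adjusted p = 0.00597), with 6 of 6 libraries above the WT range. GABA against muMt-/- gave -0.91 (SE 0.25; edgeR adjusted p = 0.196), with 6 of 6 GABA libraries below the muMt-/- range, which did not pass, and DESeq2 gave no adjusted p for it. GABA against WT gave an interval from -0.26 to 0.83. The gene lies at chr6:108660629-108666925 of mm10.

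Zeb2, which maintains the identity of tissue macrophages, stood at 49.7 to 78.5 normalized molecules in WT (median 60.7), 96.3 to 255 in muMt-/- (median 115) and 49.4 to 158 with GABA (median 80.3). All 6 muMt-/- libraries lay above the WT range, 5 of them between 96.3 and 118 and replicate 4 at 255, and the GABA libraries reached into both ranges. The log2 fold change in muMt-/- against WT was 1.09 (SE 0.21; edgeR adjusted p = 0.00349), and without replicate 4 it was 0.82 (edgeR adjusted p = 0.0253). Without that library 67 genes were called in all, where 194 had been, and 87 without WT replicate 1 and 125 without WT replicate 6. GABA against muMt-/- gave -0.62 (SE 0.21; edgeR adjusted p = 0.333), with 5 of 6 libraries below the muMt-/- range, and GABA against WT 0.47 (SE 0.21; edgeR adjusted p = 0.676). Without GABA replicate 1, the library at 158, Zeb2 passed in GABA against muMt-/- at -0.84 (edgeR adjusted p = 0.0362), and without muMt-/- replicate 4 it was at -0.36 (edgeR adjusted p = 0.767). With the share of Malat1 and Neat1 in the fit, chosen after seeing the data, it was at 0.00317 (edgeR adjusted p = 0.9998). Over all settings other than leaving out a single library, that fit among them, the adjusted p of Zeb2 in this comparison ranged from 0.0632 to 0.9998 with edgeR or DESeq2. Zeb2 lies at chr2:44983512-45117442, and the antisense gene Zeb2os lies within it. Whether the counting used the strand was not given, so that reads from where they overlap cannot be told apart. Zeb2os held 75, 46 and 41 molecules in WT, muMt-/- and GABA, and Zeb2 487, 659 and 528.

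The muMt-/- TAM libraries also differed from WT in other ways. The nuclear RNAs Malat1 and Neat1 took 0.313% to 0.384% of the molecules in WT, 0.458% to 1.04% in muMt-/- and 0.344% to 0.518% with GABA, and all 6 muMt-/- libraries lay above the WT range. Its exact permutation p was 0.00216, the smallest that 6 against 6 allows, and 0.130 adjusted over 60 comparisons. A single list that separates fully therefore cannot pass this adjustment on its own. The ribosomal transcript Rn45s took 7.07% to 11.4%, 12.5% to 18.8% and 6.96% to 19.9%. The 8 cycling cell markers took 0.0843% to 0.148% of the molecules in WT (median 0.113%) and 0.0564% to 0.112% in muMt-/- (median 0.0629%), and 4 of 6 muMt-/- libraries lay below every WT library. The exact permutation p was 0.0238 (adjusted p 0.238 over the same comparisons), and edgeR called 2 of the 8 genes, both lower. Of the 18 macrophage markers edgeR called 1 higher and 3 lower, and before adjustment 5 were higher and 7 lower. Dendritic cell markers held 11 molecules in WT and 28 in muMt-/-, with 4 of 6 libraries above every WT library (exact permutation p = 0.0281, adjusted p 0.241). Depth was lower in muMt-/- than in WT, with medians of 149960 and 242756 molecules. TAM replicate 4 of muMt-/- was highest of its group in Malat1 and Neat1, in Rn45s and in Zeb2, and replicate 1 of GABA highest of its group in all of these too and lowest in Bhlhe40, at 3.98.

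With the share of Malat1 and Neat1 in the fit, the log2 fold change of Zeb2 in muMt-/- against WT was 0.34 (edgeR adjusted p = 0.848), and that of Bhlhe40 was 1.35 (edgeR adjusted p = 0.253). In that fit neither factor was called and 2 genes were called in all, where 194 had been. With log2 depth in the fit, Zeb2 was at 0.78 (edgeR adjusted p = 0.257) and Bhlhe40 at 1.38 (edgeR adjusted p = 0.0491). Without both libraries of the highest Rn45s share, Zeb2 was at 0.82 (edgeR adjusted p = 0.00119) and Bhlhe40 at 1.19 (edgeR adjusted p = 0.00532). Over all settings other than leaving out a single library, with edgeR or DESeq2, the adjusted p ranged from 5.88e-07 to 0.848 for Zeb2 and from 0.00268 to 0.253 for Bhlhe40. These covariate and Rn45s fits were chosen after seeing the data. In GABA libraries the share of nuclear RNA overlapped that of WT (exact permutation p = 0.190, adjusted p 0.602), and 5 of 6 lay below every muMt-/- library (exact permutation p = 0.00649, adjusted p 0.195). The part of nuclear RNA in these differences was not tested. Fewer cells of a type and less RNA per cell cannot be told apart in these libraries.

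**Figure D2:**
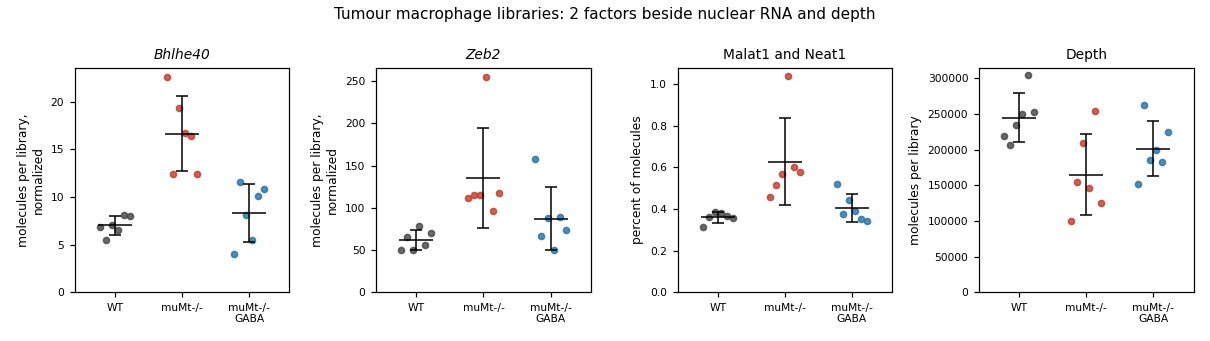
Normalized molecules of Bhlhe40 and Zeb2, percent of molecules from Malat1 and Neat1, and molecules per library (vertical axes, from 0) in the TAM libraries of WT, muMt-/- and GABA-treated muMt-/- mice; points are libraries, 6 per group, and black bars the mean and SD. The muMt-/- libraries lie above WT for Bhlhe40, Zeb2 and the nuclear RNAs, and 4 of the 6 are shallower than every WT library.

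Runx3, which macrophages use with Runx1, stood at 17.1 to 35.6 normalized molecules in WT TAMs (median 26.6), 35.0 to 62.8 in muMt-/- (median 46.6) and 23.8 to 54.4 with GABA (median 34.6). 4 of the 6 muMt-/- libraries lay above every WT library, and the GABA libraries lay across both groups. Runx3 gave a log2 fold change in muMt-/- against WT of 0.75 (SE 0.21; edgeR adjusted p = 0.0514), just outside the threshold. It passed in DESeq2, at 0.78 (DESeq2 adjusted p = 0.0173). The adjusted p over the settings other than leaving out a single library ranged from 0.0173 to 0.840 with edgeR or DESeq2. With edgeR it also passed with DESeq2 size factors (adjusted p = 0.0451), no filter (adjusted p = 0.0185), filterByExpr (adjusted p = 0.0291), a robust fit (adjusted p = 0.0269) and the 12 libraries of the comparison alone (adjusted p = 0.0285). It did not pass with the nuclear RNA share in the fit, at 0.43 (edgeR adjusted p = 0.840), with log2 depth, at 0.40 (edgeR adjusted p = 0.678), without both libraries of the highest Rn45s share, at 0.64 (edgeR adjusted p = 0.0997), with replicates as a block (edgeR adjusted p = 0.0565) or with total molecules per library (edgeR adjusted p = 0.0659). Of the fits that leave out 1 library it passed without WT replicate 2 (adjusted p = 0.0443) or 4 (adjusted p = 0.0404) and without muMt-/- replicate 3 (adjusted p = 0.0474) or 5 (adjusted p = 0.0377), with edgeR. GABA against WT gave 0.43 (SE 0.21; edgeR adjusted p = 0.711).

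Prdm1 in TAMs was at 7.10 to 14.4 normalized molecules in WT, 11.1 to 25.1 in muMt-/- and 9.14 to 16.5 with GABA, with medians of 9.08, 14.4 and 13.2. The groups overlapped, and 3 muMt-/- libraries lay above the WT range. In muMt-/- against WT the log2 fold change was 0.64 (SE 0.25; edgeR adjusted p = 0.178). Id2, Batf and Nfatc1 gave log2 fold changes with intervals that included 0 in each TAM comparison, and their medians in WT, muMt-/- and GABA were 27.6, 39.7 and 27.7 for Id2, 1.15, 2.17 and 1.29 for Batf, and 10.97, 12.6 and 12.9 for Nfatc1.

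With GABA, 0 of 7 factors were called by edgeR against muMt-/-, beside 0.0211% of genes, and 2 were under an unadjusted p of 0.05, Zeb2 and Bhlhe40, both lower, beside 8.46%. DESeq2 called 0 factors and 62 genes. The median of the 7 was -0.32, beside 0.06 for all genes. GABA against WT gave 0 factors beside 0.0739% of genes, and before adjustment 2, Runx3 and Zeb2, both higher, beside 7.02%, with 0 factors and 13 genes in DESeq2. The comparisons of muMt-/- with WT and of GABA with muMt-/- share the 6 muMt-/- libraries.

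**Figure D3:**
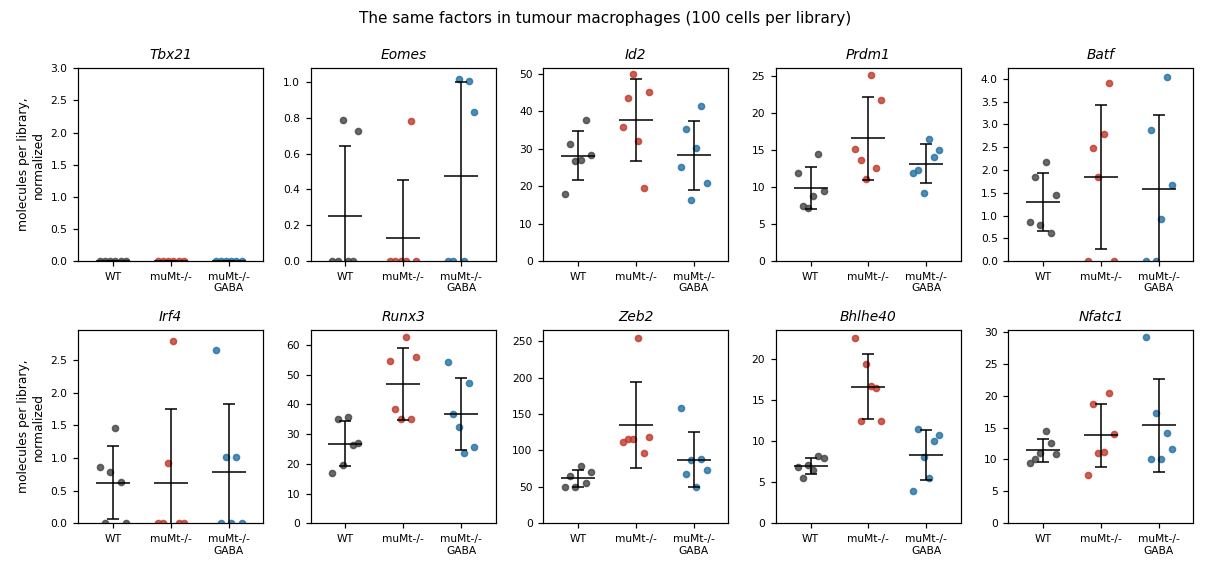
Normalized molecules per library (vertical axis, from 0) of the 10 factors in TAMs of WT, muMt-/- and GABA-treated muMt-/- mice; points are libraries, 6 per group, and black bars the mean and SD. Tbx21 is at 0 in every library, and the muMt-/- libraries of Bhlhe40 and Zeb2 lie above those of WT.

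Among the other genes of the programme in TAMs, 1 of 10 tested naive, memory and exhaustion regulators and 1 of 22 tested partners and paralogues were called in muMt-/- against WT, both higher, and 0 of 8 downstream effector genes and 0 of 16 inducing signals. Before adjustment 1, 3, 6 and 3 of the effector, regulator, partner and signal genes were higher and 1, 0, 0 and 0 lower, beside 636 higher and 772 lower of all 9469 genes. Nr4a2, an orphan nuclear receptor that receptor signals induce, stood at 4.36 to 11.995 normalized molecules in WT and 9.40 to 32.0 in muMt-/-. 5 of the 6 muMt-/- libraries lay above the WT range, and the log2 fold change was 1.13 (SE 0.29; edgeR adjusted p = 0.0286). Irf2, a relative of Irf4 that competes with Irf1, was at 32.0 to 47.4 in WT and 37.7 to 77.4 in muMt-/-, with 5 of 6 above the WT range and a log2 fold change of 0.68 (SE 0.17; edgeR adjusted p = 0.0278). The medians of the regulators and the partners were 0.31 and 0.18, beside -0.05 for all genes, and those of effector genes and inducing signals -0.06 and 0.06. In muMt-/- against WT, DESeq2 called Nr4a2 and Irf2 too, and also Fos and Irf8, named here after their values were seen. No gene of the 4 lists was called by edgeR in either GABA comparison. DESeq2 called Maf and Fos in GABA against muMt-/-. Maf stood at 47.0 to 76.1 normalized molecules in muMt-/- (median 59.6) and 36.6 to 47.3 with GABA (median 40.7), and Fos at 249 to 484 (median 320) and 200 to 290 (median 247). The ranges met or overlapped, with 5 of 6 GABA libraries below every muMt-/- library for Maf and 3 of 6 for Fos. Maf was at -0.54 (DESeq2 adjusted p = 0.0293; edgeR adjusted p = 0.278) and Fos at -0.45 (DESeq2 adjusted p = 0.0410; edgeR adjusted p = 0.341). Before adjustment 1, 0, 1 and 0 genes of the effector, regulator, partner and signal lists were higher and 1, 0, 2 and 1 lower with GABA than in muMt-/-, beside 488 higher and 313 lower of all genes. Against WT, 1, 2, 2 and 0 were higher and 1, 0, 0 and 0 lower, beside 354 and 311.

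The genes of smallest p in TAMs, chosen for that, were Cx3cr1, Ccl5, Ifngr1 and Il7r in muMt-/- against WT. Ifngr1, a chain of the IFNγ receptor, stood at 17.9 to 27.6 normalized molecules in WT (median 23.5), 31.1 to 40.4 in muMt-/- (median 31.3) and 18.3 to 26.6 with GABA (median 22.4). All 6 muMt-/- libraries lay above both other groups, and neither difference passed, at 0.52 against WT (SE 0.18; edgeR adjusted p = 0.122) and -0.57 for GABA against muMt-/- (SE 0.18; edgeR adjusted p = 0.298). The others of GABA against muMt-/- were Ifng, Ccl5, Nr4a2, Nr4a1, Maf, Fos and Ifnar1. Ifng there rested on 18 molecules with GABA and 0 in muMt-/-, nearly all in 1 GABA library, at 21.2 normalized molecules where the median was 0. NK cell markers held 1, 4 and 16 molecules over the TAM libraries of WT, muMt-/- and GABA, with 5 of 6 GABA libraries above every WT library (exact permutation p = 0.0152, adjusted p 0.234 over 60 comparisons), and their part in this value was not tested. Ifng, Cx3cr1, Nr4a3, Nr4a2, Runx1, Irf2, Mtor and Ppp3r1 were those of GABA against WT.

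CD8+ T cells and TAMs of the same groups of mice were compared in a fit of all 36 libraries, with levels in CPM. Libraries of both cell types came from the same number of sorted cells, and every CD8 library held fewer molecules than every TAM library. Higher and lower in this comparison therefore refer to the share of a library and not to molecules per cell. Of the 10 factors edgeR called 7 higher in CD8 and 2 higher in TAMs in WT, beside 5.99% and 16.8% of the 8477 genes tested. In muMt-/- 6 and 1 were called, beside 7.71% and 13.6%, and with GABA 7 and 1, beside 7.93% and 14.1%. DESeq2 called 8, 7 and 8 in either direction. Tbx21, Eomes and Irf4 passed the filter only through the CD8 libraries and so had to differ, and the counts include them. The factors had been chosen as T cell genes. The median log2 fold change of all genes was -0.36, -0.10 and -0.12 in WT, muMt-/- and GABA with TMM and -0.04, 0.13 and 0.02 with total molecules per library. With the latter 760 genes were higher in CD8 and 968 in TAMs in WT, 966 and 832 in muMt-/-, and 851 and 1005 with GABA.

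Tbx21 was found in CD8 libraries at 64.7, 37.2 and 57.4 CPM over the WT, muMt-/- and GABA groups, and TAMs held 0 molecules in every library. The ratio has therefore no value, only a lower bound, which is 31.7, 12.2 and 23.1 with 3 counts set for each TAM group, and 23.1, 8.77 and 17.6 as the lower end of a counting interval. Eomes was at 49.5 CPM in WT CD8 cells, with 2 molecules in all WT TAM libraries, a ratio of 36.3 with a counting interval of 8.22 to 331. In muMt-/- the ratio was 39.1 (6.08 to 1641), and with GABA 17.3 (5.17 to 90.7). Irf4 held 26, 32 and 22 molecules in the CD8 groups and 5, 3 and 4 in those of TAMs. Every CD8 library lay above every TAM library of the same group for Eomes and Irf4.

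Bhlhe40 was at 193 to 429 CPM in WT CD8 libraries and 29.1 to 43.5 in WT TAMs, with no overlap. The log2 fold changes of CD8 against TAM were 2.38 (SE 0.28) in WT, 1.77 (SE 0.24) in muMt-/- and 2.48 (SE 0.25) with GABA, with edgeR adjusted p of 9.30e-10, 3.72e-08 and 8.08e-12. Relative to the median of all genes they were 2.74, 1.87 and 2.597. Bhlhe40 held 67, 138 and 141 molecules in the CD8 groups of WT, muMt-/- and GABA and 56, 84 and 56 in those of TAMs. Id2 was also higher in all 6 CD8 libraries of each group, at 432 to 839 CPM in WT against 95.7 to 197. In molecules Id2 stood at 157, 264 and 297 in the CD8 groups and 225, 185 and 183 in those of TAMs, so that WT CD8 libraries held fewer. Its log2 fold changes were 1.60 (SE 0.26), 1.54 (SE 0.25) and 1.90 (SE 0.24), with edgeR adjusted p of 1.33e-06, 1.77e-06 and 1.15e-08.

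Zeb2 stood the other way, at 0 to 119 CPM in WT CD8 libraries and 268 to 431 in WT TAMs. Every CD8 library lay below every TAM library of the same group. The log2 fold changes were -2.51 (SE 0.41), -2.75 (SE 0.33) and -2.0004 (SE 0.32) in WT, muMt-/- and GABA (edgeR adjusted p = 2.03e-06, 1.75e-09 and 1.42e-06), and -2.16, -2.65 and -1.88 relative to the median of all genes. Zeb2 in CD8 groups was at 21.8%, 17.8% and 28.6% of its TAM level, where the median over the 18 macrophage markers was 2.79%, 14.5% and 16.7%. How much of the Zeb2 in muMt-/- CD8 libraries came with macrophage RNA was not tested.

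Batf was higher in CD8, with log2 fold changes of 2.38 (SE 0.65), 1.63 (SE 0.59) and 2.37 (SE 0.53) and edgeR adjusted p of 0.00394, 0.0398 and 0.000474 in WT, muMt-/- and GABA. The muMt-/- value did not pass without CD8 replicate 6, at 1.14 (edgeR adjusted p = 0.256), nor without CD8 replicate 2 or TAM replicate 1, 2, 3 or 6 of muMt-/-, at 1.44 to 1.69 (edgeR adjusted p = 0.0502 to 0.0767). It did not pass with replicates as a block (edgeR adjusted p = 0.0525) or with no filter (edgeR adjusted p = 0.0623) either. Nfatc1 was higher by 0.92 (SE 0.31; edgeR adjusted p = 0.0252) in WT and 0.87 (SE 0.27; edgeR adjusted p = 0.0117) with GABA, and at 0.74 (SE 0.29; edgeR adjusted p = 0.0584) in muMt-/- it did not pass. It did pass there without CD8 replicate 4 or 5 or TAM replicate 2 or 5 of muMt-/-, at 0.82 to 0.99 (edgeR adjusted p = 0.0144 to 0.0459). The WT value of Nfatc1 did not pass without CD8 replicate 4, at 0.71 (edgeR adjusted p = 0.154), nor with replicates as a block, at 0.88 (edgeR adjusted p = 0.0504), nor with no filter, at 0.81 (edgeR adjusted p = 0.1004). Over the settings other than leaving out a single library, the adjusted p ranged from 0.00122 to 0.1004 for the WT value of Nfatc1 and from 0.00776 to 0.160 for its muMt-/- value, and from 0.0181 to 0.0623 for that of Batf, with edgeR or DESeq2. In molecules Nfatc1 stood the other way, at 39, 59 and 77 in the CD8 groups of WT, muMt-/- and GABA and 91, 74 and 92 in those of TAMs. Its higher values in CD8 are therefore shares of smaller libraries. Batf held 13, 17 and 27 molecules in the CD8 groups and 10, 11 and 11 in those of TAMs. Prdm1 was lower in WT CD8 cells than in TAMs, at -1.52 (SE 0.55; edgeR adjusted p = 0.0365). With DESeq2 size factors that was -1.37 (edgeR adjusted p = 0.0762) and it did not pass. It did not pass with total molecules per library, at -1.20 (edgeR adjusted p = 0.130), or in DESeq2, at -1.41 (DESeq2 adjusted p = 0.119), nor did it without CD8 replicate 1, 2 or 5 or TAM replicate 1, 4, 5 or 6 of WT, at -1.19 to -1.48 (edgeR adjusted p = 0.0525 to 0.134). In muMt-/- Prdm1 was at -0.86 (SE 0.38; edgeR adjusted p = 0.0994), and without CD8 replicate 1, the library with the highest macrophage marker share, at -1.50 (edgeR adjusted p = 0.00425). Over all settings other than leaving out a single library, the adjusted p of Prdm1 ranged from 0.0292 to 0.130 in WT and from 0.0854 to 0.249 in muMt-/-, with edgeR or DESeq2. Runx3 was not called in any group, with intervals of -0.38 to 0.85, -0.98 to 0.13 and -0.55 to 0.53.

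Of the downstream effector genes, 17 of 19 tested were higher in CD8 in WT and 2 lower, 16 and 1 in muMt-/-, and 17 and 0 with GABA. Only 8 genes of this list passed the filter in TAMs alone, so that most of the others entered through the CD8 libraries and had to differ. The same holds for genes of the other lists that TAMs hardly express. Ifng, Xcl1 and Nkg7 were among them in WT, Ifng, Nkg7 and Klrc1 in muMt-/-, and Ifng, Gzmb and Il2rb with GABA, and Cx3cr1 and Tnf were lower in WT and Cx3cr1 in muMt-/-. Ifng held 1066 molecules in WT CD8 libraries and 1 in WT TAMs. The regulators gave 8, 7 and 9 higher and 1, 1 and 0 lower of 11, with Satb1, Nr4a3, Lef1 and Tcf7 among those higher and Bcl6 lower in WT and muMt-/-. The partners gave 5, 5 and 5 higher and 9, 8 and 8 lower of 23, with Ikzf3, Runx2 and Ikzf2 higher and Bhlhe41, Id1, Batf2 and Maf lower. The inducing signals gave 11, 10 and 11 higher and 3, 2 and 2 lower of 19, with Il18r1, Icos, Tnfrsf9 and Cd28 among those higher and Ifnar1 and Ppp3ca among those lower.

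Whether the effect of losing B cells, or of GABA, differed between the cell types was tested as an interaction. Tbx21, Eomes and Irf4 have too few TAM molecules for that test, which leaves 7 factors. For loss of B cells edgeR called 0 of the 7, beside 0.0118% of genes, and 0 before adjustment, beside 10.1%. The median of all genes in this interaction was 0.30 with TMM and 0.11 with DESeq2 size factors, and before adjustment 705 genes were higher and 148 lower. Bhlhe40 was at -0.61 and Runx3 at -0.66 as fitted, and at -0.91 and -0.95 relative to that median. DESeq2 called 0 factors and 38 genes, and before adjustment Runx3 and Bhlhe40. For GABA edgeR called 0 factors beside 0% of genes, and before adjustment 1, beside 4.53%, with 0 factors and 0 genes called in DESeq2 and 1 factor before adjustment. In both tools that factor was Bhlhe40, with a difference in log2 fold change of 0.71 (SE 0.34; edgeR adjusted p = 0.994). The calls of Bhlhe40 and Zeb2 in TAMs are therefore not shown to differ from the CD8 values. In the pathway lists edgeR called 0 genes in either interaction, and DESeq2 called Ifngr1 for loss of B cells, at -1.21 (DESeq2 adjusted p = 0.0229; edgeR adjusted p = 0.263). Before adjustment 4, 2, 1 and 7 of the effector, regulator, partner and signal genes were under the threshold for loss of B cells, and 3, 0, 2 and 2 for GABA. Ccl5, Cx3cr1, Nr4a3, Bcl6, Cbfb, Runx1, Ifngr1 and Ppp3ca had the smallest p for loss of B cells. Ccl5, Nkg7, Klf2, Tcf7, Tcf3, Irf8, Ifngr1 and Ppp3ca had them for GABA.

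Id2 was the only factor with a mean of at least 20 normalized molecules in CD8 libraries. Over the 18 CD8 libraries, after subtraction of group means, the genes most like it among 347 were Nkg7, a granule protein, with a Pearson r of 0.84 and a Spearman rho of 0.74, Klrc1, an inhibitory receptor, with 0.79 and 0.55, and Cd8a with 0.79 and 0.63. These values describe the libraries, which share their depth and their content of T cell RNA across genes.

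Promoter windows of RefSeq, 250 bases before to 50 after a start on GRCm38.p6, were matched by symbol for 8 of the 10 factors, not Bhlhe40 or Nfatc1. They were searched on both strands for a Runx motif, TGTGGT, held by 16.8% of all 32851 windows, the E-boxes CACGTG, held by 7.15%, and CACCTG, held by 20.2%, a T-box motif, GGTGTGA, held by 3.98%, and an AP-1 motif, TGANTCA, held by 7.81%. The windows printed here were chosen after the values were seen, because Zeb2 and Runx3 had high values in muMt-/- TAMs and Tbx21 was found in CD8 libraries alone. Capitals mark the motifs. Of the 4 windows of Zeb2, the one at chr2:45110228-45110527 (minus strand) held 2 matches to TGANTCA, and the other 3 held none of these motifs. The Runx3 window at chr4:135120395-135120694 (plus strand) held 2 matches to TGTGGT and 1 to CACCTG, and the Tbx21 window at chr11:97115282-97115581 (minus strand) 1 match to CACCTG. These windows cross the start of Runx3 and of Tbx21, and that of Zeb2 lies within the span of the gene. Of the others, the Prdm1 window held 1 match to CACCTG and 1 to TGANTCA, that of Batf 2 to TGTGGT, and those of Eomes, Id2 and Irf4 and the second of Runx3 none. A match is a run of letters and not a measured site.
Zeb2: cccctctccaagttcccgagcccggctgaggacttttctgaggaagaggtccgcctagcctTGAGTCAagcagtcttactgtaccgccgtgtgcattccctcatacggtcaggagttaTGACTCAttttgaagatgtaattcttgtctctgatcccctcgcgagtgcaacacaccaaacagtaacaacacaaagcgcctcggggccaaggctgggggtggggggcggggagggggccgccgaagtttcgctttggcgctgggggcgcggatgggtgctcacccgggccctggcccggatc
Runx3: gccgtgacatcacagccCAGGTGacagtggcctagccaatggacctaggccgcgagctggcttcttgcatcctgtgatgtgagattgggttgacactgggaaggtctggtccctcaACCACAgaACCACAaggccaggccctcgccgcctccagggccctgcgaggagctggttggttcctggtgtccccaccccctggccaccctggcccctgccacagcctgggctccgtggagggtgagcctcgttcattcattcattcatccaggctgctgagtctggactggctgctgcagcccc
Tbx21: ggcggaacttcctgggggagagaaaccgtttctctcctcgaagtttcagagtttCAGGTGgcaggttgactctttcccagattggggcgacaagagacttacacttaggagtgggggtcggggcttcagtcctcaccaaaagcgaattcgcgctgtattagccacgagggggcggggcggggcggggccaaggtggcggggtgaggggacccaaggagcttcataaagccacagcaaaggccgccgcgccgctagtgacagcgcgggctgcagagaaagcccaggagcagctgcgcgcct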

How the data were processed

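The authors mapped digital RNA-seq reads with STAR to mm10 and deposited counts of distinct molecules per gene, which were used as they stand for 24781 genes and 36 libraries. Genes with a mean normalized count above 1 were tested with edgeR 4.0.16 (quasi-likelihood F-test, TMM, 1 coefficient per group) over 18 libraries of a cell type, or 36 across cell types, with Benjamini-Hochberg adjustment over all genes and a threshold of 0.05. DESeq2 1.42.0, limma 3.58.1 and R 4.3.3 were used for alternatives. Tested on simulated data, TMM shifted the median fold change of all genes, and DESeq2 size factors did so less. TMM fold changes, above all those with the shallow WT CD8 libraries, carry that limit. Values with DESeq2 size factors are given beside the CD8 fold changes of Bhlhe40, Prdm1 and Irf4, and TMM was kept as the planned scaling. Marker shares were compared by two-sided exact permutation tests. With 6 against 6 libraries and 60 comparisons, the smallest possible p adjusts to 0.130 where a single comparison reaches it. A pseudocount of 1 was used on log2 levels. Floors are 3 counts, and intervals are 95%, both for counting error only where they come from pooled counts. The rule for named genes was a p under 0.05 before adjustment for the 10 factors, and for other lists an adjusted p under 0.05 (at most 3 per direction, largest fold changes first) or, failing that, the 2 smallest p. The members and lists were chosen with earlier results of these data known.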

Additional observations from a re-analysis of the deposited data

Results flagged for a closer look

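Dixon's 95% critical value is passed by about 1 group in 20 where values are normally distributed, while many groups here hold few molecules. The number of groups flagged can therefore not be set against that rate. In 78 groups of 6 libraries, 13 held a highest or lowest library whose gap to its nearest neighbour took a larger share of the whole range of the group than that critical value. In CD8 libraries these were Prdm1 (10.1 normalized molecules against 2.50 for the next) and Zeb2 (18.2 against 6.86) in muMt-/- replicate 1, Batf in WT replicate 3 (8.84 against 3.095) and in muMt-/- replicate 6 (5.83 against 2.24), and Bhlhe40 in WT replicate 4 (23.7 against 15.5). The macrophage marker share stood apart in CD8 muMt-/- replicate 1 (0.929% against 0.348%) and in CD8 WT replicate 5 (0.257% against 0.0712%).

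In TAM libraries Zeb2 stood apart in muMt-/- replicate 4 (255 against 118) and in GABA replicate 1 (158 against 88.6), and Irf4, a gene below the filter, in muMt-/- replicate 4 (2.79 against 0.922, which are 2 molecules and 1). Malat1 and Neat1 stood apart in muMt-/- replicate 4 (1.04% against 0.599%) and, at the low end, in WT replicate 1 (0.313% against 0.358%). Eomes in muMt-/- replicate 5 (0.783 against 0) is a single molecule. The part of nuclear RNA or of macrophage RNA in these values was not tested.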

How the results depend on the processing

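Of 279 recomputed counts of called factors, 268 lay within 1.5 times the reported count. With the unadjusted DESeq2 p, 1 factor was called in CD8 GABA against WT, 4 in TAM muMt-/- against WT, 2 in TAM GABA against muMt-/-, 2 for the interaction with loss of B cells and 1 for that with GABA. With filterByExpr 4 of 5 remaining factors were called in each comparison of CD8 with TAM, since fewer were tested. In TAM muMt-/- against WT, 1 factor was called with log2 depth in the fit and 0 with the share of nuclear RNA, both added after seeing the data, as were the fits without both libraries of highest Rn45s or macrophage marker share and DESeq2 without independent filtering. The cause was not tested. The fold change of Zeb2 in TAM GABA against muMt-/- turned from -0.62 to 0.00317 with the share of nuclear RNA. DESeq2 was run with its default independent filtering and called 282, 62 and 13 genes in the TAM comparisons. Without that filtering, the form looked at first, it called 192, 7 and 3, and the same numbers of factors (3, 0 and 0).

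Leaving out single libraries gave 2 to 3 called factors in TAM muMt-/- against WT, 0 to 1 in TAM GABA against muMt-/-, 8 to 9 in CD8 against TAM in WT, 6 to 8 in muMt-/-, 8 in GABA, and 0 in the other comparisons. Of 778 recomputed fold changes, 725 kept their direction and their side of the threshold, 27 newly passed, 25 no longer passed and 1 reversed. Some of the 27 passed only by the unadjusted DESeq2 p, where the rule itself was changed, as Irf4 did in CD8 GABA against WT. All 60 mean levels moved by less than 1 SD with TMM-scaled library sizes. Counts of all genes called ranged from 2 to 1111 in TAM muMt-/- against WT (194 as reported; 67 without muMt-/- replicate 4, 87 without WT replicate 1, 125 without WT replicate 6), 2 to 580 and 2 to 440 in the TAM GABA comparisons (2 and 7 as reported; 36 without GABA replicate 1, 12 without muMt-/- replicate 5 and 5 without replicate 2 of either group in the first, 2 or 3 without WT replicate 1, 2, 3, 4 or 6 or GABA replicate 1, 2 or 3 in the second), 0 to 222, 0 to 133 and 0 to 222 in CD8 (0 as reported; 13 without WT replicate 5 in the first, 1 without muMt-/- replicate 6 or GABA replicate 2 in the second, 1 without WT replicate 6 or GABA replicate 1 in the third), and 0 to 600 and 0 to 361 in the interactions (1 and 0 as reported; without a CD8 library, 9, 3 and 4 for WT replicate 5 and muMt-/- replicates 2 and 6 and 0 for WT replicates 4 and 6 and muMt-/- replicate 1 in the first, where TAM muMt-/- replicate 5 also gave 0, and 1 and 2 for muMt-/- replicate 6 and GABA replicate 1 in the second), the highest with the unadjusted DESeq2 p. In CD8 against TAM they were 1166 to 2441, 1219 to 2602 and 1209 to 2632. Whether same-numbered libraries come from the same mouse was not stated. Of 6 pairs of a CD8 and a TAM library, 1, 2 and 2 in WT, muMt-/- and GABA had a correlation of deviations over 0.1. The highest were 0.107, 0.145 and 0.408. Between groups of 1 cell type, which came from different mice, 0 to 3 of 6 pairs did, the highest 0.45. With the replicate block, TAM muMt-/- against WT gave 201 genes and the same number of factors, 2. CD8 depth limits what can be seen, with 6 to 32 molecules per group for Tbx21, Eomes, Prdm1, Batf and Irf4.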
